A study of Homo sapiens with 6 samples.

Results

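Angiopoietin-like proteins and extracellular lipases were examined in luciferases-expressing HepG2 cells exposed to sedanolide. The set holds 7 genes, which are ANGPTL1, ANGPTL4, ANGPTL6 and ANGPTL8 for the angiopoietin-like proteins and LIPC, LIPG and LPL for the lipases. They were matched by symbol among the 61541 Ensembl genes of the deposited count table, and all 7 were found. Of these, 5 had enough counts for the fit, and LIPG and LPL did not. The set was put together with the difference between sedanolide-treated and control cells already known in these libraries, so that this difference is given for the 7 genes as a description and with no test. HepG2 is a human hepatoblastoma line, and the cells used here carry a luciferase under an antioxidant response element (SLR3) and a second luciferase as an internal control (ELuc). Sedanolide-treated cells received sedanolide at 100 μM for 24 h, and control cells are labelled only as control at 24 h, without naming what they received (n = 3 libraries each). Both groups carry the reporters. Whether the 3 libraries of a group came from separate cultures is not stated, so that the spread between them may be technical.

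Angiopoietin-like proteins are secreted proteins, most of which join a coiled coil at the amino end to a fibrinogen-like domain at the carboxyl end. ANGPTL4 and ANGPTL8 are known for holding back lipoprotein lipase, the enzyme that releases fatty acids from the triglycerides of circulating lipoproteins, ANGPTL4 during fasting and ANGPTL8 after feeding. The lipases of this family act outside the cell, hepatic lipase (LIPC) in the liver, endothelial lipase (LIPG) mainly on HDL phospholipids, and lipoprotein lipase (LPL) in muscle and adipose tissue.

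Total expected counts were between 16420258 and 22940963 in control libraries and between 19027265 and 26714853 in sedanolide libraries. The fit with edgeR tested 14102 genes, and 94 of them (0.667%) passed the thresholds used throughout, an FDR of 0.05 with at least a 1.5-fold difference. With sedanolide 50 of these had higher and 44 had lower levels. The libraries also fell into 2 sides along component 1 of a principal component analysis, which held 56.1% of the variance. One side holds control 1, control 2 and sedanolide 3, with 1.43% to 2.15% of the counts in mitochondrial genes. The other holds control 3, sedanolide 1 and sedanolide 2, with 4.23% to 5.22%. Neither the labels nor the methods name a batch. Differences within each side are therefore given beside the pooled ones for the 5 members with enough counts and for related genes that passed these thresholds. For other related genes the pooled difference is given, and for some of them also that with the side as a term. All 10 hepatocyte and hepatoblastoma markers examined, among them ALB, AFP, APOB and HNF4A, had enough counts, with summed levels of 30683 to 46869 CPM in control and 22568 to 39432 CPM in sedanolide libraries. Of the markers of other cells, VWF, KDR and TEK (endothelial), CD163 (macrophage), LEP (adipocyte) and COL1A2 and LUM (fibroblast) were at 0 counts in all libraries. Whole lists of other markers summed to 4.02 to 5.20 CPM in control and 3.89 to 5.29 CPM in sedanolide libraries for 5 endothelial genes, and to 3.50 to 4.45 and 5.63 to 7.15 CPM for 4 adipocyte genes. The 5 macrophage genes summed to 816 to 1328 and 482 to 770 CPM, nearly all of it LYZ, and the 5 fibroblast and stellate genes to 15.0 to 23.9 and 5.38 to 11.4 CPM, nearly all of it PDGFRB. The part of these genes in the differences below was not tested. In bulk RNA, fewer cells of a type and less RNA per cell cannot be told apart.

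ANGPTL1 was the member with the lowest level relative to control cells. It encodes a secreted protein described as antiangiogenic. ANGPTL1 (ENSG00000116194) spans 178849535 to 178871077 on chromosome 1 of GRCh38, minus strand, within the bounds of RALGPS2 on the opposite strand, with which it shares 0 exon bases. Its expected counts were 36, 68 and 43 in control 1 to 3 and 10, 15 and 17 in sedanolide 1 to 3. Scaled to a common library size as normalized CPM, these are 2.18, 2.88 and 2.43 in control cells and 0.538, 0.579 and 0.674 in sedanolide-treated cells. The highest sedanolide library was far below the lowest control library, and libraries within each group were close to each other. The mean was 2.50 ± 0.354 CPM in control against 0.597 ± 0.0699 CPM in sedanolide libraries (SD, n = 3), so that sedanolide-treated cells had 23.9% of the control mean. The log2 fold change, also written as log2 ratio, was -2.05 (standard error, SE, 0.237). Leaving out each library in turn gave log2 ratios between -2.15 and -1.93.

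The difference in ANGPTL1 was of similar size on both sides of component 1. Sedanolide 3 had 0.266 times the mean of control 1 and control 2, and sedanolide 1 and 2 had on average 0.23 times the level of control 3. Differences in mean log2 CPM with a prior count of 2 were -1.76 and -1.95 on these sides. The prior count keeps them from being the logs of these ratios. With the side as a term, the log2 fold change was -2.01 (standard error 0.258). RALGPS2, the gene around it, had 41.2 ± 9.81 CPM in control against 38.1 ± 11 CPM in sedanolide libraries (SD, n = 3), with a log2 fold change of -0.11 (edgeR adjusted p = 0.89). The genes whose log2 CPM followed that of ANGPTL1 most closely over the 6 libraries were CLDN1 (Pearson r of 0.997), HS3ST5 (0.996), COQ10A (0.996), NBR1 (0.995) and ACSM3 (0.994). CLDN1 encodes a tight junction claudin and HS3ST5 a heparan sulfate sulfotransferase. In all, 458 genes had r of 0.9 or more with ANGPTL1, and the values share the same 6 libraries. Log2 fold changes of the 5 closest genes were between -1.65 (HS3ST5) and -0.44 (NBR1), all smaller in size than that of ANGPTL1.

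**Figure D1:**
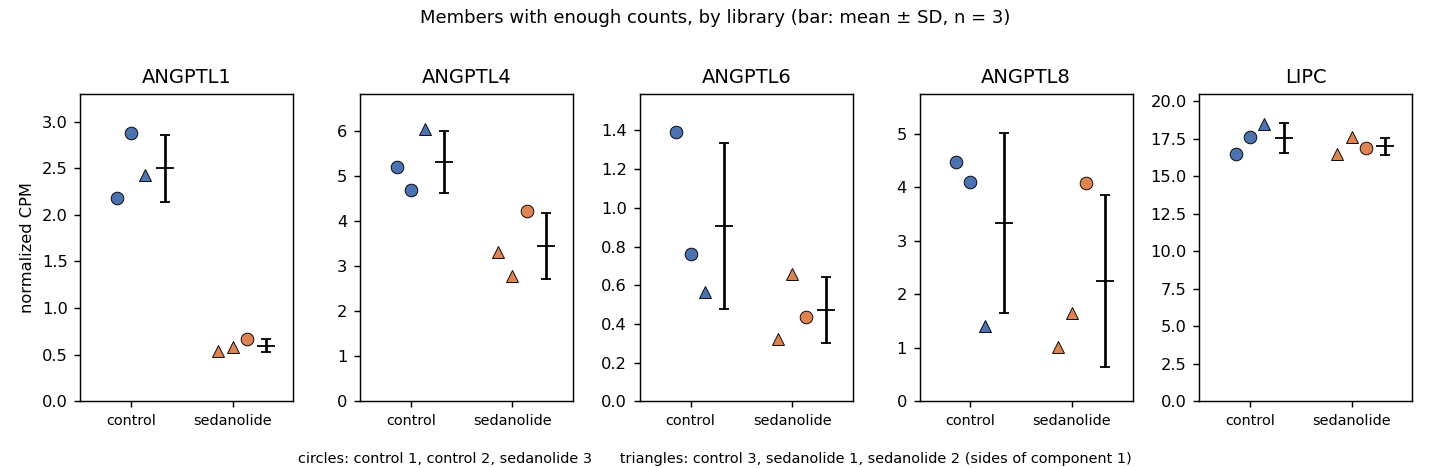
Normalized CPM (y axis, linear from 0) of the 5 members with enough counts in each library, with control libraries in blue, sedanolide libraries in orange and the mean ± SD of 3 libraries as a bar. Circles and triangles mark the sides of component 1. ANGPTL1 and ANGPTL4 separated by treatment, ANGPTL8 separated by side, with 4.08 to 4.48 CPM in the circles and 1.02 to 1.66 CPM in the triangles, and LIPC stayed between 16.5 and 18.5 CPM in all libraries.

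Upstream sequences of ANGPTL1, ANGPTL4 and ANGPTL8 are shown because these 3 genes differed between libraries in separate ways. Each line gives the 250 bases before the RefSeq start on the strand of the gene, 5′ to 3′ (GRCh38.p14), and capitals mark matches to the motifs searched. They are chr1:178871078-178871327 (minus strand) for ANGPTL1, chr19:8363905-8364154 (plus strand) for ANGPTL4 and chr19:11239369-11239618 (plus strand) for ANGPTL8. Gene spans in this report are from GENCODE, whose starts of ANGPTL4 and ANGPTL8 lie farther upstream. The stretches of ANGPTL4 and ANGPTL8 therefore fall inside those spans, and that of ANGPTL1 falls outside.
ANGPTL1: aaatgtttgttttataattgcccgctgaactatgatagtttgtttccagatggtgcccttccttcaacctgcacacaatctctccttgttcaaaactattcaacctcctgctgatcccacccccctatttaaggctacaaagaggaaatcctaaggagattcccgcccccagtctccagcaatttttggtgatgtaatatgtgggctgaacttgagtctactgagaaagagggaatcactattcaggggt
ANGPTL4: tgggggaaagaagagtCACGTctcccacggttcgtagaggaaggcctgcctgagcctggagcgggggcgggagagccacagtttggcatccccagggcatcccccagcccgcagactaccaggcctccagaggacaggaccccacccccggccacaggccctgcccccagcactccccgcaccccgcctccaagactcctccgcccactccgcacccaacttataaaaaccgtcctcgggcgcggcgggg
ANGPTL8: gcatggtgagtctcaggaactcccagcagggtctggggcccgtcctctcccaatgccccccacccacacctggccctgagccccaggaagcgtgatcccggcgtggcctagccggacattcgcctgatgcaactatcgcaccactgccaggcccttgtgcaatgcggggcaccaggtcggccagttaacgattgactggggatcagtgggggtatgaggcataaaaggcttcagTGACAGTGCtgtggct
Motifs were searched on both strands, namely the core of the antioxidant response element (TGACNNNGC), a FOXO motif (TGTTTAC), the E-box (CACGTG) and the hypoxia response element core (ACGTG), the last of which is also contained in the E-box. Of the 35116 promoters in the table, 10.9% hold the first within these 250 bases, 2.98% the second, 6.34% the third and 18.5% the fourth. ANGPTL1 had a match to none of them. ANGPTL4 had a match to the hypoxia response element core, on the opposite strand, 234 to 230 bases before the start. ANGPTL8 had a match to the core of the antioxidant response element, 16 to 8 bases before the start. A match is a description of the letters, and no binding was measured.

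ANGPTL4 was lower in sedanolide-treated cells by less than ANGPTL1. It encodes the fasting-induced inhibitor of lipoprotein lipase and is a textbook target of the fatty acid sensors of the PPAR family. ANGPTL4 (ENSG00000167772) spans 8363289 to 8374370 on chromosome 19, plus strand. Its level was 5.21, 4.70 and 6.05 CPM in control 1 to 3 and 3.33, 2.78 and 4.24 CPM in sedanolide 1 to 3. All sedanolide libraries were below all control libraries, although sedanolide 3 came close to control 2. As many as 9.65% of all genes tested had sedanolide libraries entirely below control libraries, and 8.69% had them entirely above. Among the members, ANGPTL1 and ANGPTL4 were below and none was above. The mean of ANGPTL4 was 5.32 ± 0.68 CPM in control against 3.45 ± 0.738 CPM in sedanolide libraries (SD, n = 3), and the log2 ratio was -0.62 (standard error 0.207).

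For ANGPTL4 the sides gave unlike values. Sedanolide 3 had 0.856 times the mean of control 1 and 2, whereas sedanolide 1 and 2 had on average 0.505 times the level of control 3. The difference between the sides in this ratio rests on single libraries and was not tested. In the second deposited table, ANGPTL4 had 4.73 ± 0.673 TPM in control against 2.74 ± 0.803 TPM in sedanolide libraries (SD, n = 3), and the log2 fold change on the log2(TPM + 1) scale was -0.63. The closest patterns over the 6 libraries were those of the unnamed gene ENSG00000268129 (Pearson r of 0.993), CLDN2 (0.990), KCNAB1 (0.984), MAST4 (0.983) and ACOXL (0.983), and 98 genes reached 0.9. ANGPTL1 and ANGPTL4 had r of 0.84 with each other.

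ANGPTL8 differed between the sides of component 1 and hardly between treatments within a side. It encodes a small member without the fibrinogen-like domain, which liver and adipose tissue release after feeding. ANGPTL8 (ENSG00000130173) spans 11237502 to 11241943 on chromosome 19, plus strand, inside DOCK6 on the opposite strand, with which it shares 73 exon bases. Its expected counts were 74, 97 and 25 in control 1 to 3 and 19, 43 and 103 in sedanolide 1 to 3, or 4.48, 4.11 and 1.41 CPM and 1.02, 1.66 and 4.08 CPM. Control 3 was as low as sedanolide 1 and 2, and sedanolide 3 was as high as control 1 and 2, so that the treatment groups overlapped. The pooled means were 3.33 ± 1.67 CPM in control against 2.26 ± 1.62 CPM in sedanolide libraries (SD, n = 3), and the log2 ratio was -0.55 with a standard error of 0.582. Leaving out single libraries moved it from -0.23 without sedanolide 1 to -1.29 without sedanolide 3.

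Within the sides, sedanolide libraries had 0.951 and 0.949 times the level of ANGPTL8 in control libraries. With the side as a term its log2 fold change was -0.06 (standard error 0.218). Between the sides the level was 4.23 ± 0.224 CPM in control 1, control 2 and sedanolide 3 and 1.37 ± 0.322 CPM in the other 3 libraries (SD, n = 3), a ratio of 3.10. The sides were defined from all genes in these libraries, which include ANGPTL8, and 21.0% of all genes tested were likewise higher without overlap on the side of control 1, so that no test is given. DOCK6 had 30.6 ± 1.63 CPM on the side of control 1 and 26.8 ± 1.38 CPM on the other (SD, n = 3), and its log2 fold change with sedanolide was -0.05 (edgeR adjusted p = 0.899). It had 468 to 800 expected counts, and the strand setting of the counting is not stated. Whether reads of DOCK6 in the shared bases entered the counts of ANGPTL8 was not tested. The closest patterns to ANGPTL8 over the 6 libraries were those of DCAKD (Pearson r of 0.999), INPP5B (0.999), MGRN1 (0.999), LINC02542 (0.997) and HSPG2 (0.997), and 1462 genes reached 0.9. HSPG2 encodes perlecan, a heparan sulfate proteoglycan of the basement membrane.

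**Figure D2:**
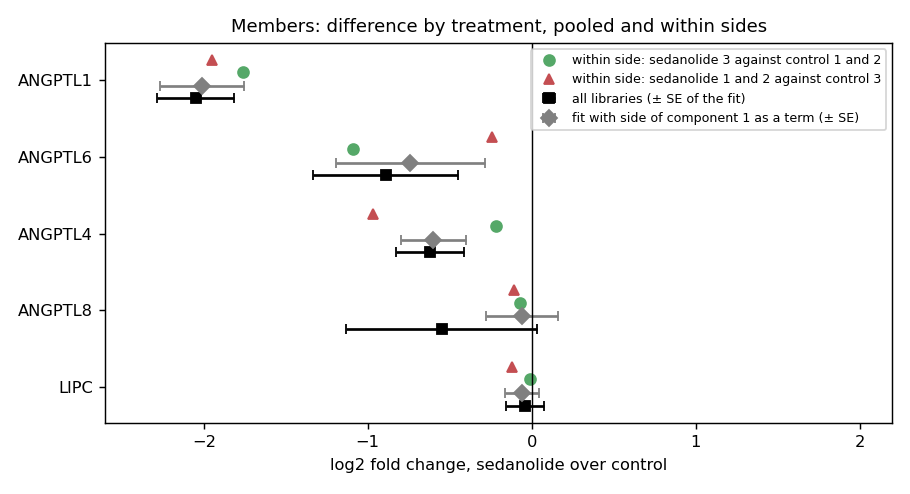
Log2 fold change of sedanolide over control (x axis) for the 5 members with enough counts, from all libraries and from the fit that also holds the side of component 1 (± SE of the fit), and within each side (no error, since one arm is a single library). Values within a side are differences in mean log2 CPM with a prior count of 2. ANGPTL1 lay between -2.05 and -1.76 in all 4 values, and ANGPTL8 moved from -0.55 to between -0.11 and -0.06 once the side was taken into account.

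ANGPTL6, also called angiopoietin-related growth factor and secreted by the liver, was close to the detection limit. ANGPTL6 (ENSG00000130812) spans 10092338 to 10102678 on chromosome 19, minus strand. Its expected counts were 23.03, 17.85 and 9.79 in control 1 to 3 and 6.4, 16.82 and 10.8 in sedanolide 1 to 3. These are not whole numbers, since RSEM estimates counts for ambiguous reads, and ANGPTL6 shares 442 exon bases with SHFL on the opposite strand, which had 381.9 to 677.4 counts. The libraries are directional, but the strand setting of the counting is not stated, so that ANGPTL6 is uncertain. SHFL itself had a log2 ratio of -0.24 (edgeR adjusted p = 0.565). The level of ANGPTL6 was 1.39, 0.762 and 0.565 CPM in control 1 to 3 and 0.323, 0.657 and 0.436 CPM in sedanolide 1 to 3, and the groups overlapped. ANGPTL6 had a log2 ratio of -0.89 (SE 0.441). Its ratios within the sides were 0.405 and 0.866.

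Hepatic lipase was the only lipase of the set with a measurable level, and it was nearly the same in every library. LIPC (ENSG00000166035) spans 58410569 to 58569844 on chromosome 15, plus strand. Its expected counts were between 272 and 456. Normalized levels were 16.5, 17.6 and 18.5 CPM in control 1 to 3 and 16.5, 17.6 and 16.9 CPM in sedanolide 1 to 3. The groups overlapped completely, with 17.5 ± 1.03 CPM in control against 17.0 ± 0.558 CPM in sedanolide libraries (SD, n = 3), and the log2 ratio was -0.04 (standard error 0.115). Within the sides the ratios were 0.993 and 0.92. In the second deposited table it had 19.2 ± 1.90 TPM in control against 16.8 ± 1.51 TPM in sedanolide libraries (SD, n = 3). The genes closest to LIPC over the 6 libraries were METTL23 (Pearson r of 0.984), CPB2-AS1 (0.983), ALPK1 (0.981), ZRANB1 (0.957) and SLC31A2 (0.956), and 22 genes reached 0.9.

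LPL (ENSG00000175445, chromosome 8 from 19901717 to 19967259) had 0 counts in all 6 libraries. LIPG (ENSG00000101670, chromosome 18 from 49560699 to 49599185) had 1 count in control 3 and 0 in the other libraries. Taking 3 counts as the most that a count of 0 allows, each of them could have had up to 0.116 CPM in sedanolide 2, the deepest library, and up to 0.182 CPM in control 1, the shallowest. These limits cover counting error only. No fold change is given for either.

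Levels of different genes can be compared only per length. Per kilobase of the canonical transcript, control cells had 6.86 ± 0.403 CPM for LIPC, 3.82 ± 1.92 for ANGPTL8, 2.84 ± 0.363 for ANGPTL4, 0.705 ± 0.1 for ANGPTL1 and 0.508 ± 0.242 for ANGPTL6 (SD, n = 3). In this order ANGPTL8 overlapped ANGPTL4, ANGPTL1 overlapped ANGPTL6, and the other neighbors did not overlap. In sedanolide-treated cells ANGPTL1 was last with 0.168 ± 0.0197 CPM per kilobase, below ANGPTL6 with 0.264 ± 0.0951 (SD, n = 3), and their libraries overlapped. LIPC, ANGPTL8 and ANGPTL4 kept the first places with 6.65 ± 0.218, 2.59 ± 1.85 and 1.84 ± 0.394 CPM per kilobase (SD, n = 3).

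Genes around these proteins in lipid handling were taken from lists of 124 genes in all, of which 93 had enough counts. The lists were written from general knowledge with earlier results of these libraries known. In the pooled fit 2 of the 93 were lower past both thresholds and 0 were higher (quasi-likelihood test of edgeR, with p-values adjusted by Benjamini-Hochberg over all genes tested), where 0.312% and 0.355% of all genes tested were. At an unadjusted p-value under 0.05, 13 were lower and 4 were higher, where 6.57% and 5.34% of all genes tested were. Their median log2 fold change was -0.10, and that of all genes tested was 0.006. Both genes past the thresholds, APOA5 and FABP1, were also past them with the side as a term.

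APOA5, the apolipoprotein that raises the activity of lipoprotein lipase, fell. APOA5 (ENSG00000110243, chromosome 11 from 116789367 to 116792420) had 23.5, 20.4 and 18.5 CPM in control 1 to 3 and 10.9, 11.5 and 11.5 CPM in sedanolide 1 to 3. The groups were well apart and sedanolide libraries were nearly equal. The log2 fold change was -0.88 (SE 0.134, edgeR adjusted p = 0.045), and -0.92 and -0.72 within the sides. When any 1 of the 6 libraries was dropped, it was no longer past the FDR threshold (adjusted p from 0.0587 to 0.315 from edgeR, log2 fold change from -0.95 to -0.79). Of the other 6 apolipoproteins tested, which act as activators or inhibitors of the lipases, none was past the thresholds. APOC2, the cofactor of lipoprotein lipase, had 163 ± 13.0 CPM in control against 132 ± 8.25 CPM in sedanolide libraries (SD, n = 3), and the log2 ratio was -0.31 (edgeR adjusted p = 0.369). APOC1, an inhibitor, had a log2 ratio of -0.46 (adjusted p = 0.185). The median of this list was -0.23.

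FABP1, the fatty acid binding protein of the liver and a PPAR target, fell further. FABP1 (ENSG00000163586, chromosome 2 from 88122982 to 88128062) had 139, 140 and 106 CPM in control 1 to 3 and 48.4, 42.2 and 57.1 CPM in sedanolide 1 to 3. Every sedanolide library was below every control library. The log2 fold change was -1.38 (SE 0.17, edgeR adjusted p = 0.0265), and -1.29 and -1.23 within the sides. It stayed past both thresholds without control 3 and without sedanolide 3, and was not past the FDR threshold in the other 4 of these fits (adjusted p up to 0.211 from edgeR). Of the other 10 PPAR targets tested, none was past the thresholds, and the median over the 11 was -0.02. PLIN2, which coats lipid droplets and like ANGPTL4 is a PPAR target, had 592 ± 88.7 and 720 ± 147 CPM in control and sedanolide-treated cells (SD, n = 3), and the log2 ratio was 0.28 (edgeR adjusted p = 0.601). CPT1A, the gate of mitochondrial fatty acid entry, had a log2 ratio of -0.02 (adjusted p = 0.958). PDK4, a target that fasting raises in normal liver, had too few counts to be tested.

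In the other lists no gene was past both thresholds in the pooled fit, and the members with the largest differences in size are given as values. Of 7 other angiopoietins and angiopoietin-like proteins, 5 had at most 3 counts in any library. Those tested were ANGPTL2, with a log2 fold change of 0.24 (standard error 0.334), and ANGPT1, with 0.04 (standard error 0.161). Of 10 other genes of extracellular lipases and lipid transfer, 4 had enough counts. CETP, which exchanges cholesteryl esters and triglycerides between lipoproteins, had 1.88, 1.52 and 1.98 CPM in control 1 to 3 and 0.806, 0.734 and 0.634 CPM in sedanolide 1 to 3. Its log2 fold change was -1.30 (edgeR adjusted p = 0.08), with the groups apart, and with the side as a term it was past both thresholds (log2 fold change -1.38, adjusted p = 0.0221). LCAT, which esterifies cholesterol on HDL, had a log2 ratio of -0.31 (adjusted p = 0.457).

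Among intracellular lipases and their partners, 8 of 12 genes had enough counts, 4 with positive and 4 with negative log2 fold changes (median 0.09). CES1, a carboxylesterase that hydrolyzes lipid esters, had 1.58, 1.19 and 1.24 CPM in control 1 to 3 and 3.06, 4.21 and 5.47 CPM in sedanolide 1 to 3. The groups were apart, and the log2 fold change was 1.68 (edgeR adjusted p = 0.0513), just short of the FDR threshold. With the side as a term it was past both (log2 fold change 1.83, adjusted p = 0.00344). HILPDA, an inhibitor of adipose triglyceride lipase that hypoxia induces, had a log2 ratio of 0.63 (adjusted p = 0.226), and the lipase itself, PNPLA2, of -0.38 (adjusted p = 0.385).

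Genes that fold, carry, anchor or cleave the lipases had 14 of 16 members with enough counts and a median of -0.21. Of these 14, 11 had negative values, where 6948 of the 14102 genes tested had. The median log2 difference between the sides was 0.45 in this list and -0.015 over all genes tested. The side of control 1 holds 2 of the 3 control libraries, so that the pooled values can also hold part of this difference. SEL1L, which with LMF1 serves lipase folding in the endoplasmic reticulum, had a log2 ratio of -0.70 (edgeR adjusted p = 0.436), and HSPG2 of -0.40 (adjusted p = 0.77). Both were closer to 0 with the side as a term, at -0.50 and -0.02. In 8 of these 14 genes the side of control 1 was entirely higher, as in ANGPTL8, and in 1 entirely lower. Among all 14102 genes tested, 2955 (21.0%) and 3265 were. GPIHBP1, which holds lipoprotein lipase on capillaries, had 0 counts in all libraries.

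Lipoprotein receptors had 9 of 9 genes tested and a median of -0.25. In 4 of these 9 the side of control 1 was entirely higher and in 0 entirely lower. Among all 14102 genes tested, 2955 (21.0%) and 3265 were. Pooled values of this list can therefore also hold part of the difference between the sides. SORL1, a sorting receptor that also binds lipoproteins, had a log2 ratio of -0.84 (edgeR adjusted p = 0.451), and of -0.57 with the side as a term. LRP8, a receptor for apolipoprotein E, had a log2 ratio of 0.84 (adjusted p = 0.186), and with the side as a term it was past both thresholds (0.96, adjusted p = 0.00849). Candidate receptors of angiopoietin-like proteins had 5 of 9 genes tested and a median of -0.26. In 3 of these 5 the side of control 1 was entirely higher and in 0 entirely lower, so that the same limit holds. The integrin subunit ITGA1 had a log2 ratio of -0.54 (adjusted p = 0.231) and TIE1, an endothelial receptor, of -0.34 (adjusted p = 0.779). With the side as a term, ITGA1 was at -0.47 and TIE1 at -0.50. TEK and LILRB2 had 0 counts.

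Transcription factors that act on the members were all measured, 18 of 18, and had a median of -0.04. SREBF1, the master factor of lipogenesis, had a log2 ratio of -0.49 (edgeR adjusted p = 0.318), and NR1H3, the oxysterol receptor LXR alpha, of 0.22 (adjusted p = 0.755). PPARA, a fatty acid sensor of the PPAR family, had 45.8 ± 5.37 CPM in control against 48.8 ± 7.79 CPM in sedanolide libraries (SD, n = 3). Log2 ratios were 0.09 for PPARA (edgeR adjusted p = 0.841), -0.14 for PPARD (adjusted p = 0.675) and -0.15 for PPARG (adjusted p = 0.834). NFE2L2, which encodes NRF2, had a log2 ratio of -0.09 (adjusted p = 0.842). Targets of LXR, ChREBP and SREBP1, which also act on ANGPTL8, had 11 of 15 genes tested and a median of -0.28. GPAM, the first enzyme of triglyceride synthesis, had a log2 ratio of -0.54 (adjusted p = 0.567) and PNPLA3, a lipid droplet protein, of -0.49 (adjusted p = 0.224). In 7 of these 11 genes the side of control 1 was entirely higher and in 0 entirely lower, where 2955 (21.0%) and 3265 of the 14102 genes tested were. The last list holds genes around or near members of the family, with 6 of 6 tested and a median of 0.15. P2RY11 had a log2 ratio of 0.47 (adjusted p = 0.385) and PPAN of 0.46 (adjusted p = 0.474).

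**Figure D3:**
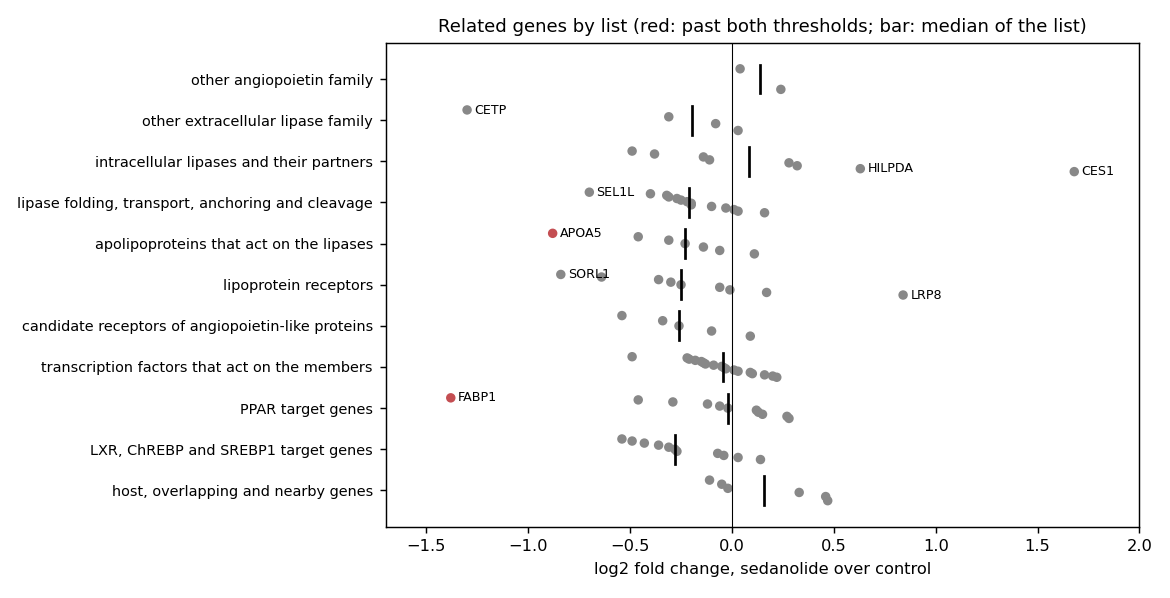
Log2 fold change of sedanolide over control (x axis) for the related genes with enough counts, 1 point a gene, by list (y axis), with the median of each list as a bar and genes past both thresholds in red. A gene on 2 lists is drawn in both. APOA5 at -0.88 and FABP1 at -1.38 were the only red points, and CES1 at 1.68 and CETP at -1.30 lay as far out without being past the FDR threshold.

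Once the side was a term in the fit, 3 of the 93 related genes were lower (CETP, APOA5 and FABP1) and 2 were higher (CES1 and LRP8) past both thresholds, where 1.62% and 1.06% of all genes tested were. Either direction together, 2.69% of all genes tested passed in this fit. In 33 of the 93 genes the side of control 1 was entirely higher and in 12 entirely lower, where 2955 (21.0%) and 3265 of the 14102 genes tested were. ANGPTL8 had the largest such difference among the members and the related genes tested, 1.59 on the log2 scale. ANGPTL1 had the largest difference by treatment among them in size.

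**Figure D4:**
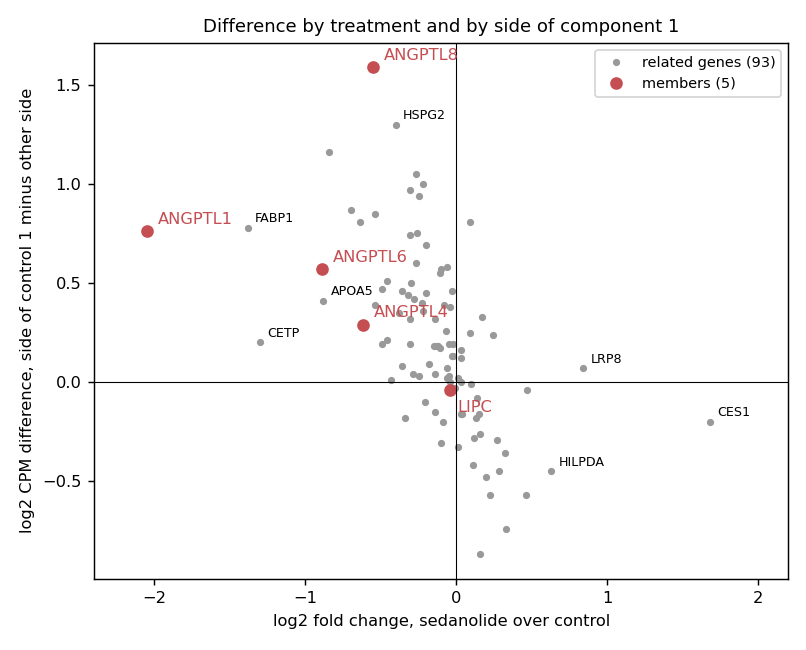
Log2 fold change of sedanolide over control (x axis) against the difference in mean log2 CPM between the side of control 1 and the other side (y axis) for the 5 members (red) and 93 related genes (grey). ANGPTL1 is the point farthest to the left at -2.05, ANGPTL8 the highest at 1.59, and LIPC lies near the origin. The 2 axes share the same 6 libraries, and the side of control 1 holds 2 of the 3 control libraries, so that they are not independent.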

How the data were processed

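RNA-seq was analyzed for 3 control and 3 sedanolide libraries of luciferases-expressing HepG2 cells, grouped by the labels. Per the labels, FastQC, Trimmomatic, STAR and RSEM were used with GRCh38. The versions and annotation release are not given in the sources used here. The count table that the authors deposited gives expected counts without normalization. Their other deposited table lists 11006 genes and reporters as log2(TPM + 1), chosen by an unstated filter. After rounding, the counts were fitted with edgeR 4.0.16 under R 4.3.3 (filterByExpr, TMM, robust quasi-likelihood fit, condition as the only term, Benjamini-Hochberg adjustment over all genes). Standard errors are the size of the log2 fold change divided by the root of F. Correlations and log2 differences within sides used log2 CPM with a prior count of 2. Ratios within sides are ratios of mean normalized CPM. The script was tested on simulated data. Positions are from GENCODE 44, in which 61369 identifiers were found, and promoters from RefSeq (GRCh38.p14), where 6 of the 7 genes matched.

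All 7 members are named. From each list of related genes, those past both thresholds are named, and otherwise the 2 with the largest log2 fold change in size. A few further genes were named after their values were seen. Among them are APOC1, APOC2, PLIN2, CPT1A, PNPLA2, PPARA, PPARD, PPARG, NFE2L2 and genes at 0 counts. The members and lists were chosen with earlier results of these data known. The study used DESeq2 in iDEP at the same thresholds. DESeq2 1.42.0, limma 3.58.1, other scalings, filters and terms were alternatives. All libraries entered the fit, and those within a group differed by more than sampling noise.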

Additional observations from a re-analysis of the deposited data

How the results depend on the processing

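ANGPTL1 ranged from -2.15 to -1.93 on the log2 scale over 14 alternatives. ANGPTL4 ranged from -0.80 to -0.49, ANGPTL6 from -1.22 to -0.49 and ANGPTL8 from -1.29 to -0.06, within 1 SD of the replicates. ANGPTL8 is the member that single libraries decide most. LIPC was -0.18 in the deposited log2(TPM + 1) table and -0.19 with recovered TPM and a pseudocount of 0.1, beyond its small SD. The cause was not tested.

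Counts of calls moved more. DESeq2 called 129 higher and 195 lower genes, and 2 related genes higher. Testing all genes with at least 1 count gave 78 higher and 79 lower genes and 1 related gene higher. With the side as a term, 150 genes were higher and 229 lower, and 2 related genes were higher. The deposited log2 table gave 32 higher and 28 lower genes and 0 related genes lower, and recovered TPM gave 32 higher genes and 0 related genes lower. With 1 library left out, 0 to 65 genes were higher and 0 to 70 lower, and 0 to 1 related genes were lower. Leaving out control 1, or sedanolide 2, ended all calls in edgeR, although 433 and 349 genes were higher and 632 and 538 lower at an unadjusted p-value under 0.05 in edgeR. The fit with the replicate block called 0 genes higher, 0 lower and 0 related genes lower, with 282 higher and 488 lower at an unadjusted p-value under 0.05. Same-numbered libraries had correlations of -0.133, -0.295 and -0.73 in their deviations from the group means. These deviations also hold the split between the sides. Whether the numbers pair the libraries therefore cannot be decided from them. APOA5 and FABP1 were also not past the FDR threshold with the block (edgeR adjusted p = 0.592 and 0.463) or in the second table (limma adjusted p = 0.0558 and 0.0542). ANGPTL1, ANGPTL6, CETP and CES1 are not among the genes of the second table used here. Depth limits ANGPTL6, LIPG and LPL, and counts of 10 to 68 limit ANGPTL1.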
